A study of Mus musculus with 20 samples.

Results

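The genes described are the interferon-induced members of the poly(ADP-ribose) polymerase (PARP) family, Parp9, Parp14, Parp10, Parp12 and Parp11, with Dtx3l, the ubiquitin ligase that partners Parp9, and Parp1 and Parp2 as family members that interferon does not induce. They were chosen by name, as every non-control probe of the array that carried one of these symbols, which gave 8 of 30342 gene names and 12 of 39429 probes. Parp9 and Parp10 had 2 probes each, Dtx3l had 3, and the other members had 1 each.

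The study measured total RNA of Irgm1-/- and WT mice on a C57BL/6 background with 20 single-colour Agilent microarrays, 1 array a mouse and tissue, to find interferon-stimulated genes raised in several tissues of mice that lack Irgm1, an immunity-related GTPase. Whole salivary gland was measured in 4 Irgm1-/- and 4 WT mice, the small intestine in 3 and 3, and macrophages isolated from the colon in 3 and 3. In salivary gland every mouse was female, and the Irgm1-/- mice were 9 weeks old and the WT mice 6 or 7 weeks, so that genotype and age cannot be told apart there. In each gut tissue the ages ran from 6 to 8 weeks in both genotypes, 2 of the 3 Irgm1-/- mice were male, and all 3 WT mice were female. Animal numbers carried by the deposited files tied the 6 mice of the gut tissues to 1 small intestine array and 1 macrophage array each, with the same genotype, age and sex in all 6 cases. The labels give no account of the deleted part of Irgm1, of how macrophages were isolated, or of littermates.

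PARP enzymes transfer ADP-ribose from NAD+ to proteins and nucleic acids. Parp1 and Parp2 build chains of ADP-ribose at DNA breaks, whereas most interferon-induced members attach single units and take part in antiviral defence and in the regulation of cytokine signalling. Type I interferon receptors act through transcription factors, Stat2 and Irf9 among them, which bind response elements in the promoters of such genes.

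Levels are log2 processed signals minus the 75th percentile of the same array, so that 0 is the percentile and a difference of 1 is a doubling of signal. In salivary gland only probes that all 8 arrays detected entered the percentile, and in the gut tissues every probe did, so that levels printed for different tissues are on different scales. A level is comparable between arrays for 1 probe and not between probes, and a probe counted as detected where the scanner software marked it well above background. The share of probes detected ran from 25.2% to 48.7% in salivary gland, from 52.6% to 62.1% in small intestine and from 57.0% to 74.2% in macrophages. Salivary arrays were the dimmest, with 75th percentiles over all probes of 130 to 1022 signal units, against 2322 to 4690 in small intestine and 922 to 2137 in macrophages. Within salivary gland the percentiles were 154 to 1022 on Irgm1-/- arrays and 130 to 332 on WT arrays. The share of probes detected there was 27.2% to 48.7% on Irgm1-/- arrays and 25.2% to 36.0% on WT arrays. The effect of this brightness on detection in salivary gland was not tested.

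The Irgm1 probes read higher, not lower, in the mice labelled Irgm1-/-. In salivary gland the brighter of its 2 probes had levels of 0.44, -0.05, -0.80 and -0.22 in Irgm1-/- mice, against -2.86, -2.90, -2.68 and -2.76 in WT mice (log2 difference 2.64, SE 0.23, adjusted p = 0.000567). The differences were 1.16 in small intestine (adjusted p = 0.0546) and 0.88 in macrophages (adjusted p = 0.317). The deleted part of Irgm1 is not given, so whether these probes lie inside or outside it was not tested. The arrays thus did not check the genotype labels, and every direction given here rests on those labels.

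In salivary gland, Parp14, Parp9, Dtx3l and Parp10 rose in Irgm1-/- mice by 2.84-fold to 8.60-fold, and Parp1 did not pass the test. Of the 8 genes, 5 could be tested and 4 of these rose, where 2.25% of all 11477 genes tested were called in either direction and 2.09% rose. Parp14 and Parp9 were detected in 2 and 1 of 4 WT glands, so they met the detection filter with the help of the Irgm1-/- glands. With detection required on every array, 2 members were called, and 117 of 8231 genes. In all 4 genes every Irgm1-/- array lay above every WT array, which was so for 10.3% of all genes tested. The median log2 difference of the 5 tested members was 1.91, and that of all genes tested was 0.03. The number of genes called over the whole array was 258, and it was 153 without Irgm1-/- replicate 2 and 526 without Irgm1-/- replicate 4.

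Parp14, a large enzyme with macrodomains that attaches single ADP-ribose units and is known as a cofactor of Stat6, had the largest difference among the tested members. Its levels were -0.27, -1.13, -1.42 and -1.29 in Irgm1-/- salivary glands, against -3.80, -4.46, -3.95 and -4.32 in WT salivary glands. The groups were far apart, and the probe was detected in all 4 Irgm1-/- glands and in 2 of 4 WT glands. The difference was 3.10 (SE 0.27, adjusted p = 0.000507), and within the 2 slides it was 3.43 and 2.78.

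Parp9 and Dtx3l encode a complex in which Dtx3l ligates ubiquitin and Parp9 binds ADP-ribose through its macrodomains. Parp9 had levels of -1.30, -2.22, -2.56 and -2.66 in Irgm1-/- glands, against -4.42, -4.81, -4.14 and -4.58 in WT glands. The WT values lay near background, with 1 of 4 WT arrays detected, and the difference was 2.30 (SE 0.29, adjusted p = 0.00368). Dtx3l had levels of -0.24, -1.27, -1.06 and -1.48 in Irgm1-/- glands, against -2.73, -2.86, -2.97 and -3.15 in WT glands, and was detected on every array. It rose by 1.91 (SE 0.25, adjusted p = 0.00443), and within slides the differences were 2.04 and 1.79 for Dtx3l and 2.86 and 1.75 for Parp9. With the other background correction tried, normexp on the raw signals, the differences were 2.27 for Parp14, 1.56 for Parp9 and 1.33 for Dtx3l, and that of Dtx3l no longer passed (adjusted p = 0.0754).

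Parp10, which attaches single ADP-ribose units and carries ubiquitin-binding motifs, had levels of 1.03, 0.56, 0.23 and 0.21 in Irgm1-/- glands, against -0.81, -1.12, -0.99 and -1.07 in WT glands. It was detected on every array, and the groups did not overlap. The difference was 1.51 (SE 0.19, adjusted p = 0.00329), with 1.76 and 1.25 within the 2 slides. Replicate 1 of the Irgm1-/- glands was the highest array for each of the 4 genes that rose. Without that array the 4 genes still passed.

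Parp12, a zinc-finger PARP with antiviral activity, was too dim in salivary gland for the test as designed. Its levels were -3.49, -4.18, -4.72 and -4.13 in Irgm1-/- glands, of which 3 were detected, against -7.02, -6.95, -5.71 and -5.63 in WT glands, of which none was detected. The groups did not overlap, and since the WT values lay below background the mean processed signal was at least 1.33-fold higher in Irgm1-/- glands. When probes detected on 3 arrays were admitted, a setting chosen after the data were seen, the difference of 2.19 passed (adjusted p = 0.0194), and with no filter on dim probes it did not (adjusted p = 0.114). Parp11, a PARP of the nuclear envelope, was not detected in any salivary gland.

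Parp1, the main sensor of DNA breaks, had levels of -2.85, -3.31, -3.31 and -3.44 in Irgm1-/- glands, against -3.44, -3.46, -3.31 and -3.47 in WT glands. The groups overlapped and the difference was 0.19 (SE 0.14, adjusted p = 0.43). Parp2, which acts beside Parp1 in repair, was detected in 1 of 4 Irgm1-/- glands and in no WT gland, and was not tested.

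**Figure D1:**
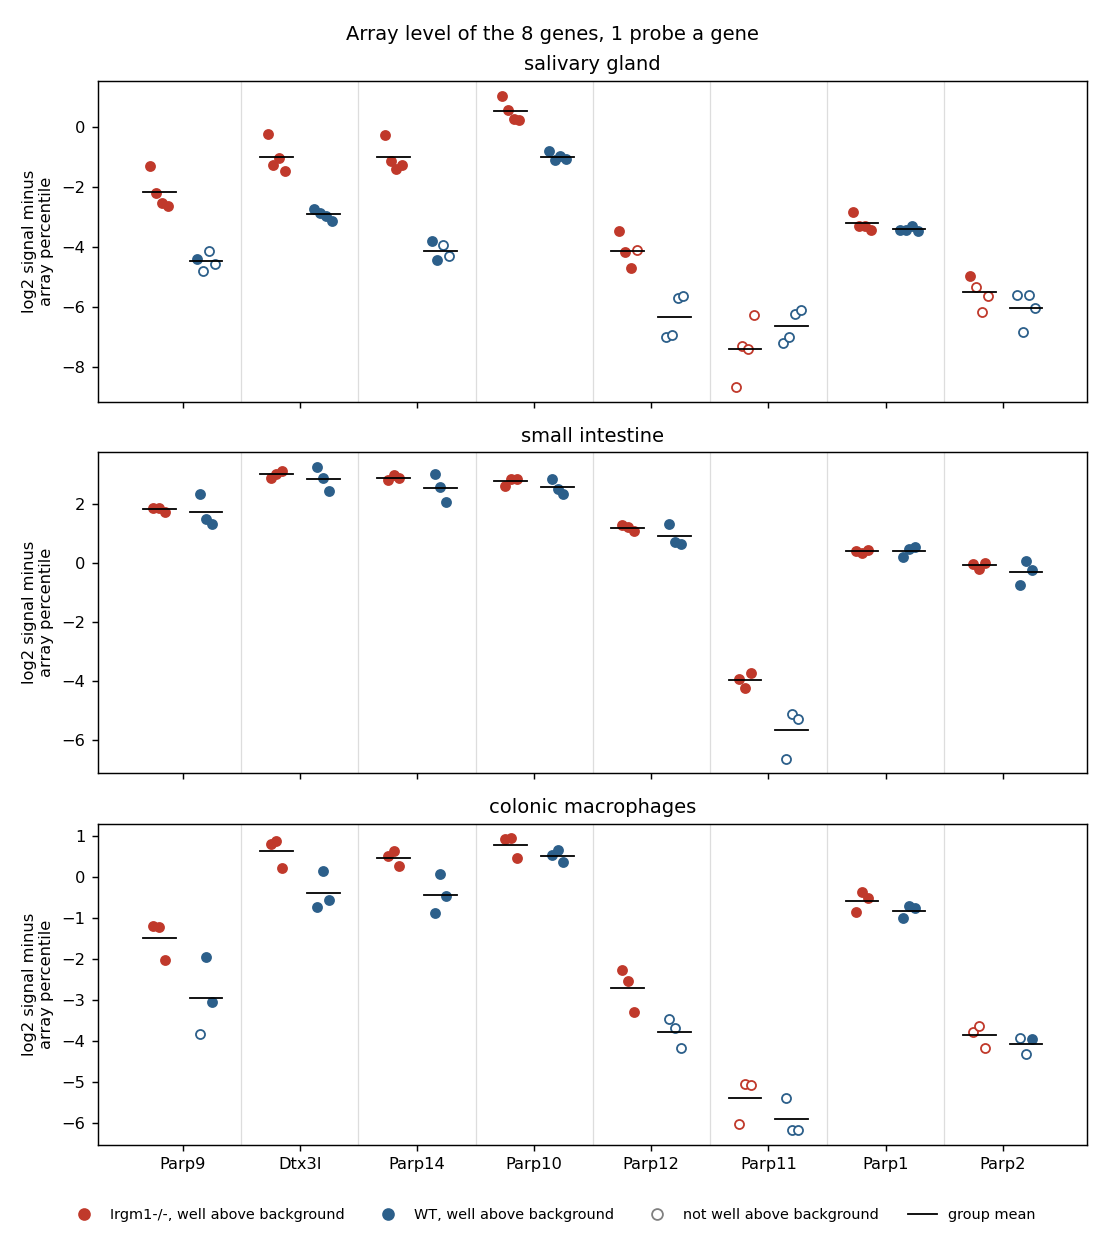
Log2 level (processed signal minus the array percentile) of the 8 genes on each array, 1 probe a gene, with Irgm1-/- left of WT, open points for arrays not well above background, and lines for group means; the percentile differs between panels. In salivary gland all 4 Irgm1-/- arrays lie above all 4 WT arrays for Parp9, Dtx3l, Parp14, Parp10 and Parp12.

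In small intestine none of the 8 genes passed the test, although all 8 were bright enough to be tested. Over the whole array 26 of 18053 genes tested were called, or 0.144%, all of them higher in Irgm1-/- mice. At an unadjusted threshold of 0.05, 1 of the 8 members, Parp11, and 6.95% of all genes passed. Parp11 was detected on Irgm1-/- arrays only, so it entered the test through the group where it was higher. The median log2 difference of the 8 genes was 0.22, and that of all genes was -0.10. The count over all genes was 1 without Irgm1-/- replicate 1 or 2, 8 without Irgm1-/- replicate 3, 4 without WT replicate 2 and 3 without WT replicate 3. With the replicate number as a block it was 1.

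Parp14 had levels of 2.84, 3.0 and 2.89 in Irgm1-/- intestine, against 3.03, 2.58 and 2.09 in WT intestine. Dtx3l had levels of 2.89, 3.02 and 3.14 in Irgm1-/- intestine, against 3.27, 2.89 and 2.46 in WT intestine. WT replicate 1 was the highest WT array for both, and the groups overlapped. Parp9 had levels of 1.87, 1.88 and 1.75 in Irgm1-/- intestine, against 2.37, 1.5 and 1.33 in WT intestine. Parp10 had levels of 2.63, 2.88 and 2.88 in Irgm1-/- intestine, against 2.86, 2.54 and 2.34 in WT intestine. For each of these 4 genes WT replicate 1 again led its group, while the Irgm1-/- arrays stayed within a narrow range. The differences ranged from 0.11 to 0.34 (adjusted p from 0.67 to 0.875). On the first slide, which held WT replicate 1 and 1 Irgm1-/- array, they were -0.50 for Parp9, -0.38 for Dtx3l, -0.22 for Parp10 and -0.19 for Parp14, and on the second slide 0.41, 0.41, 0.44 and 0.61 in the same order.

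Parp12 had levels of 1.30, 1.22 and 1.08 in Irgm1-/- intestine, against 1.33, 0.74 and 0.67 in WT intestine (difference 0.29, adjusted p = 0.67). Parp11 was the exception to the overlap, with levels of -3.93, -4.22 and -3.71 in Irgm1-/- intestine, against -6.63, -5.10 and -5.28 in WT intestine. It was detected on 3 of 3 Irgm1-/- arrays and on no WT array, so the mean processed signal was at least 1.85-fold higher in Irgm1-/- intestine. The fitted difference of 1.71 (SE 0.42) did not pass over all genes (adjusted p = 0.50), and 5.38% of all genes tested had every Irgm1-/- array above every WT array. With normexp the Parp11 difference was 0.01, so the bound holds for the processed signals only. The Irgm1-/- arrays of small intestine were the brighter ones, with 75th percentiles of 3868 to 4690 signal units, against 2322 to 3204 on WT arrays. The effect of this brightness on detection was not tested.

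Parp1 and Parp2 lay close together in the 2 genotypes of the small intestine. Parp1 had levels of 0.43, 0.34 and 0.44 in Irgm1-/- intestine, against 0.21, 0.50 and 0.55 in WT intestine (difference -0.02, SE 0.15). Parp2 had levels of -0.02, -0.18 and 0.02 in Irgm1-/- intestine, against -0.72, 0.09 and -0.23 in WT intestine (difference 0.23, SE 0.23). Neither passed, and in both genes the spread of the WT arrays covered the Irgm1-/- arrays.

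In colonic macrophages Parp9, Parp12, Dtx3l and Parp14 had differences of 0.90 to 1.46. In the fit without the replicate block none passed the test over all genes, and with that block Parp12 did (adjusted p = 0.0325). Of 21175 genes tested 29 were called, or 0.137%, of which 2 were higher (0.00945%) and 27 lower (0.128%), and 0 of the 6 members tested were among them. At an unadjusted threshold of 0.05, 4 of 6 members passed, all higher, where 10.4% of all genes passed in either direction and 3.89% were higher. Among the 4, Parp12 was detected on Irgm1-/- arrays only, so it entered the test through the group where it was higher. The median difference was 0.96 over the 6 members and 0.10 over all genes. The count over all genes was 18 without Irgm1-/- replicate 1, 46 without Irgm1-/- replicate 3 and 16 without WT replicate 2.

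Dtx3l had levels of 0.82, 0.89 and 0.23 in Irgm1-/- macrophages, against -0.73, 0.16 and -0.56 in WT macrophages (difference 1.02, SE 0.33, adjusted p = 0.255). Parp14 had levels of 0.52, 0.65 and 0.27 in Irgm1-/- macrophages, against -0.88, 0.08 and -0.46 in WT macrophages (difference 0.90, SE 0.30, adjusted p = 0.286). In both genes the groups did not overlap, as in 7.12% of all genes tested, but the highest WT array, replicate 2, came close to the lowest Irgm1-/- array. Parp9 had levels of -1.20, -1.22 and -2.02 in Irgm1-/- macrophages, against -3.83, -1.94 and -3.04 in WT macrophages (difference 1.46, SE 0.48, adjusted p = 0.269). Here WT replicate 2 lay above 1 Irgm1-/- array.

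Parp12 had levels of -2.26, -2.53 and -3.28 in Irgm1-/- macrophages, against -3.46, -3.69 and -4.16 in WT macrophages. The groups did not overlap, and no WT array was detected. The mean processed signal was thus at least 2.0-fold higher in Irgm1-/- macrophages (fitted difference 1.07, SE 0.34, adjusted p = 0.247). With the replicate number as a block Parp12 passed (adjusted p = 0.0325), in a fit that called 1099 genes over the array. With sex as a covariate the differences were 0.48 for Parp12, 0.60 for Dtx3l, 0.70 for Parp14 and 0.92 for Parp9.

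Parp10 had levels of 0.93, 0.95 and 0.46 in Irgm1-/- macrophages, against 0.53, 0.66 and 0.37 in WT macrophages (difference 0.26, SE 0.26). Parp1 had levels of -0.85, -0.36 and -0.51 in Irgm1-/- macrophages, against -0.99, -0.71 and -0.74 in WT macrophages (difference 0.24, SE 0.25). Both overlapped between genotypes. Parp11 was detected on no macrophage array and Parp2 on 1, a WT array, and neither was tested.

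**Figure D2:**
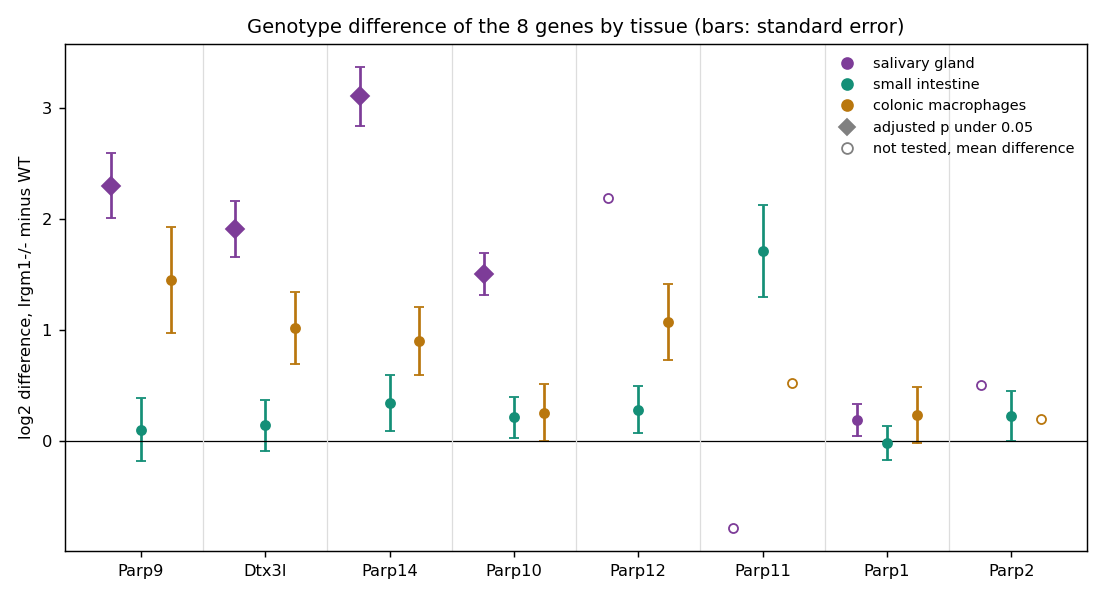
Log2 difference, Irgm1-/- minus WT, of the 8 genes in each tissue with its standard error; diamonds mark an adjusted p under 0.05 and open points are mean differences of genes too dim to test. The diamonds are the 4 salivary gland values of 1.51 to 3.10.

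Whether the genotype difference itself differed between tissues was tested in 1 fit of all 20 arrays, put on a common scale. Parp14 had a larger difference in salivary gland than in small intestine (3.09 against 0.57, a gap of 2.52, SE 0.40, adjusted p = 0.0106). It was also larger in salivary gland than in macrophages (3.09 against 0.82, a gap of 2.27, SE 0.40, adjusted p = 0.00482). The gap for Parp10 passed against macrophages (1.49 against 0.17, a gap of 1.32, SE 0.26, adjusted p = 0.00944) and not against small intestine (1.49 against 0.44, adjusted p = 0.216). So 1 of the 5 genes compared passed against small intestine and 2 of 5 against macrophages, where 0.16% and 3.73% of 23700 genes did. The Parp14 gap to small intestine did not pass without WT replicate 1 of the small intestine (2.40, adjusted p = 0.057) or with normexp (1.64, adjusted p = 0.19). The Parp10 gap to macrophages did not pass when arrays were scaled to their median (1.38, adjusted p = 0.216).

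For Dtx3l the gaps were 1.53 to small intestine (SE 0.39, adjusted p = 0.224) and 0.97 to macrophages (SE 0.39, adjusted p = 0.257). For Parp9 they were 1.96 (SE 0.55, adjusted p = 0.315) and 0.92 (SE 0.55, adjusted p = 0.526). Parp9 and Dtx3l were therefore called in salivary gland and not in the gut tissues, without a difference between tissues that passed. Between small intestine and macrophages, 0 of 6 genes passed, adjusted or at an unadjusted limma p under 0.05, where 0.844% and 10.5% of all genes did. The fit took the arrays as independent although the same 6 animals gave both gut tissues, and with the animal as a random block (correlation 0.107) 0 of 6 passed. For Parp1 all gaps lay between -0.02 and 0.05.

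Parp9 and Dtx3l each had probes that differed in where they were detected, and the sequences of these probes are shown for that reason. In both genes probe 1 is the one used above. The first 30 bases are given for the probes of Parp9 and for probe 1 of Dtx3l, and all 60 for probes 2 and 3 of Dtx3l, each 5′ to 3′ as the scanner files hold them, on chromosome 16.
Parp9 probe 1: gcctgttattttctaaaatgatagcacaaa
Parp9 probe 2: acacagtggagttgtgtgtgaagcagggta
Dtx3l probe 1: catccagtgtgcacatgcaaattccacgtg
Dtx3l probe 2: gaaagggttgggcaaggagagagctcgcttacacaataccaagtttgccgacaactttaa
Dtx3l probe 3: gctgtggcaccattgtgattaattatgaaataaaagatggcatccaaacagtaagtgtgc

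Probe 2 of Parp9 was detected in no salivary gland and no small intestine, yet on all 6 macrophage arrays. There its levels were 0.34, 0.37 and 1.12 in Irgm1-/- macrophages, against -0.49, 0.34 and 1.15 in WT macrophages (difference 0.28, SE 0.43). The groups overlapped. The scanner files annotate it to another transcript model of Parp9 than probe 1, and its longest run of bases shared with probe 1 was 6.

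Probes 2 and 3 of Dtx3l were likewise detected in no salivary gland, on 5 and 6 of 6 small intestine arrays and on all macrophage arrays. In macrophages probe 2 had levels of 0.36, 0.86 and 0.08 in Irgm1-/- mice, against -0.71, -0.18 and -0.31 in WT mice (difference 0.83, SE 0.29, adjusted p = 0.305 over all probes). Probe 3 had levels of -0.90, -0.77 and -1.16 in Irgm1-/- macrophages, against -1.72, -1.95 and -1.81 in WT macrophages (difference 0.88, SE 0.24, adjusted p = 0.169). All 3 Dtx3l probes thus had separate groups in macrophages, with differences of 0.83 to 1.02. In small intestine probe 2 had levels of -2.26, -2.10 and -2.53 in Irgm1-/- mice, against -4.75, -2.49 and -3.02 in WT mice (difference 1.12, SE 0.56). Probe 3 had levels of -2.71, -2.54 and -3.05 in Irgm1-/- intestine, against -4.02, -2.96 and -3.85 in WT intestine (difference 0.84, SE 0.31). WT replicate 1, the highest WT array at probe 1 of Dtx3l, was the lowest at probes 2 and 3. Neither probe passed over all probes (adjusted p = 0.685 each), and 0 member probes were called in small intestine or macrophages, where 0.116% and 0.141% of all probes were. In salivary gland 4 of the 5 member probes tested were called, against 2.3% of all 13650 probes tested.

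**Figure D3:**
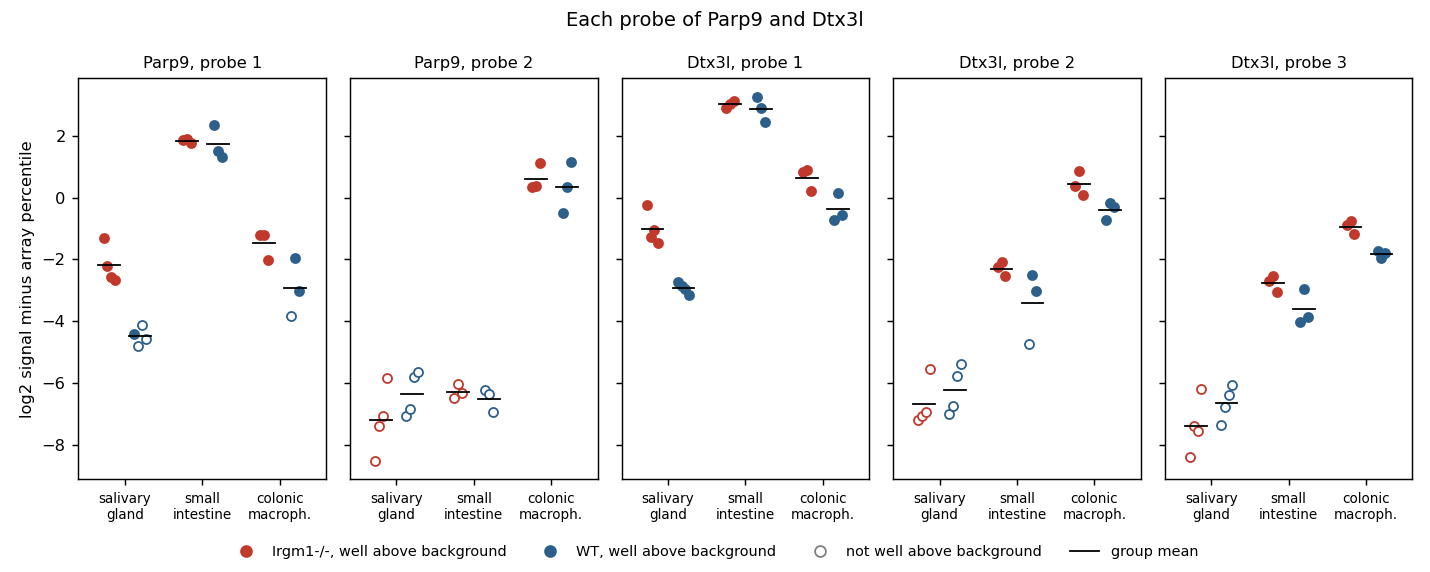
Log2 level of each probe of Parp9 and Dtx3l on every array, by tissue, with Irgm1-/- left of WT and open points for arrays not well above background; the scale is set within each tissue. In salivary gland only probe 1 of each gene has filled points, while on the macrophage arrays every probe but 1 array of Parp9 probe 1 is filled.

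The second Parp10 probe was well above background on no array of any tissue. It shared a run of 20 bases with the probe used above, shown in capitals in the last 30 bases of that probe and the first 30 of the second, both on chromosome 15.
Parp10 probe used above: ctgtctttgaATAAACCTGTACTTGAAACC
Parp10 second probe: ATAAACCTGTACTTGAAACCagttagaagg

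On the common scale, and by the 1 probe used for each gene, WT levels of most of these genes were highest in the small intestine. Dtx3l averaged -3.04 ± 0.17 in WT salivary gland (SD, n = 4) and -0.52 ± 0.28 in WT small intestine (SD, n = 3), a difference of -2.52 (adjusted p = 3.9e-07). Parp14 averaged -4.24 ± 0.31 in WT salivary gland and -0.83 ± 0.34 in WT small intestine, and Parp9 -4.60 ± 0.28 and -1.66 ± 0.38. Parp12 and Parp2 were detected in no WT salivary gland, and their processed signals were at least 4.51-fold and 1.96-fold higher in WT small intestine. Parp1 differed by -0.56 (adjusted p = 0.0261), a call lost with normexp (-0.15, adjusted p = 0.461), with quantile normalization (-0.29, adjusted p = 0.152), with all probes behind the percentile (-0.33, adjusted p = 0.0899) and without salivary gland WT replicate 4 or small intestine WT replicate 2 or 3 (adjusted p from 0.0561 to 0.111). Parp10 differed by -0.30, which did not pass (adjusted p = 0.157). In all, 6 of the 7 members compared were lower in WT salivary gland, where 76% of all genes were called, with 28.3% of all genes lower in salivary gland, and the median gene was 0.59 higher there. Over the alternatives 4 to 7 members were called, with 4 under normexp, where Parp2 was also lost (-0.53, adjusted p = 0.103), and 4 by the mean of all probes, where Dtx3l (-0.60, adjusted p = 0.0755) and Parp9 (0.26, adjusted p = 0.478) were lost.

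WT macrophages were likewise below WT small intestine in 6 of 7 members. The mean of Parp14 was -2.84 ± 0.57 in WT macrophages and -0.83 ± 0.34 in WT small intestine (SD, n = 3 each). The log2 difference, WT macrophages minus WT small intestine, was -2.27 for Dtx3l, -3.69 for Parp9 and -1.08 for Parp10. For Parp2, which was detected on 1 of 3 WT macrophage arrays, the fitted value was -2.79, and -1.47 with normexp. The processed signal of Parp12 was at least 12.4-fold higher in small intestine. Parp1 did not pass (difference -0.26, adjusted p = 0.307), but it did with quantile normalization (-1.43, adjusted p = 1.33e-06), array medians (-2.80, adjusted p = 5.47e-08), all probes behind the percentile (-1.23, adjusted p = 6.56e-06) and a percentile per tissue (-0.62, adjusted p = 0.0112). Over the array 81.8% of genes were called, 24.4% lower in macrophages, with a median of 1.41 higher in macrophages. By the mean of all probes of a gene the differences were 2.07 for Parp9 and 1.5 for Dtx3l, so that the order of these 2 genes turned.

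Between WT macrophages and WT salivary gland 2 of 5 members were called, where 75.9% of all genes were, 51.4% higher and 24.6% lower in macrophages, and the median was 0.91 higher in macrophages. Parp14 was higher in macrophages (difference 1.40, adjusted p = 0.000279) and Parp10 lower (difference -0.79, adjusted p = 0.00105). Scaled to array medians, Parp14 had a difference of -0.30, and with a percentile taken within each tissue Parp10 had 0.26, so neither order held under every scaling. Tissue and the day of the scan cannot be told apart in these comparisons.

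**Figure D4:**
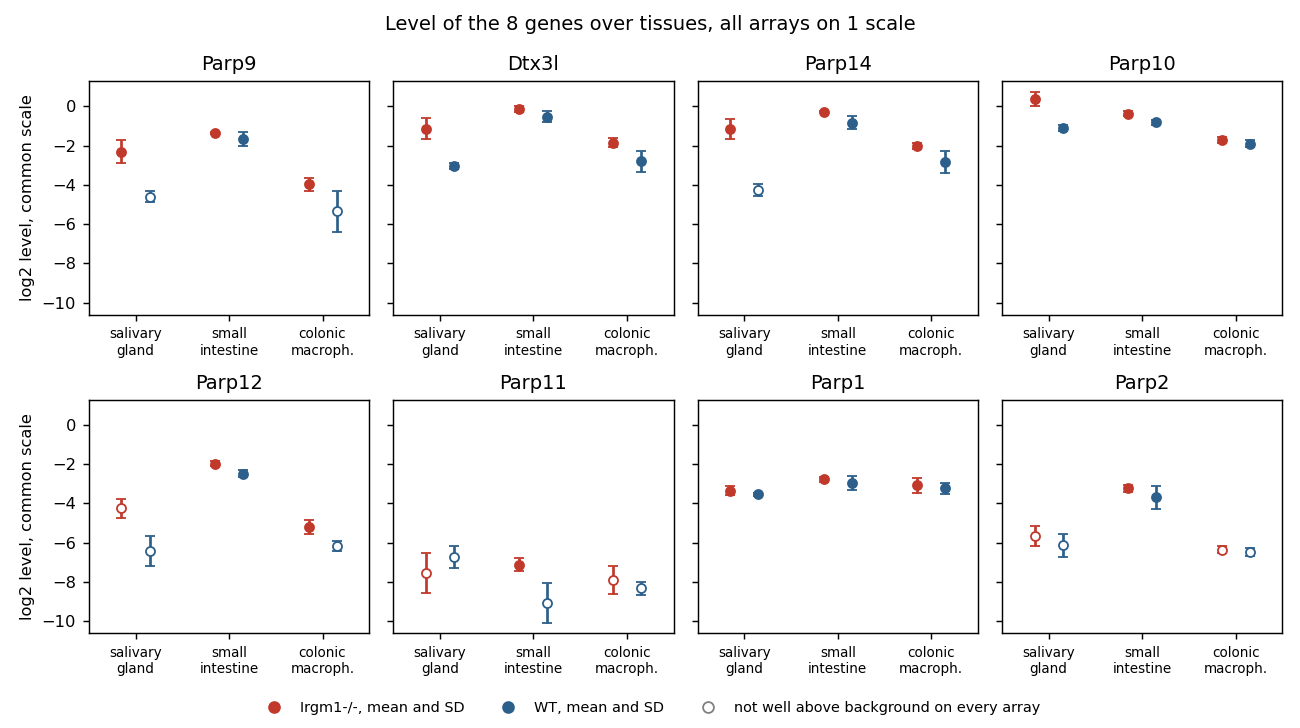
Mean log2 level on the common scale, with SD, of the 8 genes in each tissue, Irgm1-/- left of WT (4 arrays each in salivary gland, 3 each elsewhere); open points mark groups not well above background on every array. Dtx3l, Parp14 and Parp9 in WT mice are highest in small intestine, where the genotypes lie closest together.

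The 6 animals measured in both gut tissues allow the arrays of an animal to be set side by side. By the 1 probe used for each gene, the highest WT animal for Parp9, Dtx3l, Parp14 and Parp10 was the same in both tissues, the animal labelled d. Its Parp14 levels were 3.03 in small intestine and 0.08 in macrophages, against 2.58 and -0.88 in animal a and 2.09 and -0.46 in animal f. The other 2 WT animals thus lay below it in both tissues, and their own order changed between tissues. For Parp12 and Parp1 the highest WT animal differed between the tissues, and for Parp11 and Parp2 it was animal a in both. At probes 2 and 3 of Dtx3l animal d was the lowest WT animal in small intestine (-4.75 and -4.02). In macrophages it was the highest at probe 2 (-0.18) and the lowest at probe 3 (-1.95). The share of all genes with the same highest animal in both tissues was not tested. The pattern of animal d was picked after its values were seen, and 6 animals are too few for more than a description.

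**Figure D5:**
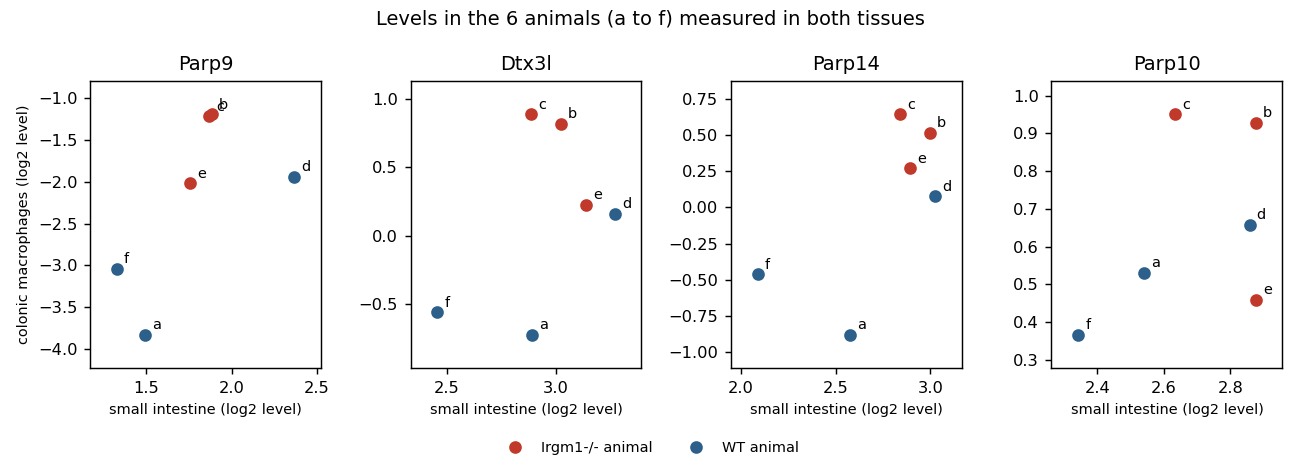
Log2 level in colonic macrophages against log2 level in small intestine for Parp9, Dtx3l, Parp14 and Parp10, with 1 point for each of the 6 animals (a to f) and axes scaled within each tissue. By the 1 probe used for each gene, WT animal d lies right of and above the other WT animals in each panel.

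Across the 20 arrays, with the mean of each tissue removed, the levels of Parp9, Dtx3l, Parp10 and Parp14 ran together, with Pearson r of 0.90 to 0.97 between them and 0.45 to 0.57 with Parp1. These arrays share the genotype contrast and the scaling, so the values are a description. Among 10440 genes tested in all 3 tissues, the genes most like Parp14 were Oasl1 (r = 0.99), an antiviral oligoadenylate synthetase-like gene, Znfx1 (0.99) and Uba7 (0.98), the activating enzyme of Isg15. For Parp10 they were Uba7 (0.98) and the immunoproteasome subunits Psmb9 (0.98) and Psmb8 (0.98). For Parp9 they were Rnf213, Tent4a and Ddx58 (0.95 to 0.96), and for Dtx3l Znfx1, Rnf213 and Tent4a (0.96 each). The genes most like Parp1 were Usp39, Cse1l and H2-Oa, with lower values of 0.79 to 0.84. None of the last 3 was called in salivary gland, whereas Oasl1 had a difference of 4.15 (adjusted p = 0.000501) and Uba7 of 2.26 (adjusted p = 0.00362) there.

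Parp14, Dtx3l and Parp9 follow each other directly in the order of protein-coding genes on chromosome 16 of the RefSeq annotation of GRCm38.p6. RefSeq promoter windows, 250 bases before to 50 after a start, were found for 5 of the 8 members, 6 windows in all, and were searched on both strands for the core of the interferon-stimulated response element, read as GAAA, any 2 bases and GAAA, and for the gamma-activated site, TTCNNNGAA. The first was in 3.44% and the second in 8.3% of all 32841 windows of that length. Of the members' windows, only the first of Parp11 held either, with 1 match of each. The window of Dtx3l, the single gene with a window among the 4 that rose in salivary gland, held neither, and the windows of Parp12, Parp1 and Parp2 held neither. The Parp11 window that held both matches and the Dtx3l window are shown, with matches in capitals, and the Parp11 probe was not matched to either of the 2 Parp11 windows.
Parp11, chr6:127446590-127446889 (GRCm38.p6, plus strand): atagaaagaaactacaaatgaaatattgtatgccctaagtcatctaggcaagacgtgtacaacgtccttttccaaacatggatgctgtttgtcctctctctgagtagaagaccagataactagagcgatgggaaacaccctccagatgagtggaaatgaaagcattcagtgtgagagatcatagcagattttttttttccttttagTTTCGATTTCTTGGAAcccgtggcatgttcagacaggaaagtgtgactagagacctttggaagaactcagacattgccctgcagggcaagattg
Dtx3l, chr16:35938978-35939277 (GRCm38.p6, minus strand): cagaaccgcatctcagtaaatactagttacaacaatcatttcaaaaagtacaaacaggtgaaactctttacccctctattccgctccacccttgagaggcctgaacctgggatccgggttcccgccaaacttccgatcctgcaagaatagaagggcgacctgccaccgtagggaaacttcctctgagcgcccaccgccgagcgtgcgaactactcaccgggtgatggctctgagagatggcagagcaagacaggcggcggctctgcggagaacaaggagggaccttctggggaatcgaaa

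In the Parp11 window the match TTTCGATTTC, the reverse strand form of the first motif, began 44 bases before the start. The match TTCTTGGAA of the second motif began 37 bases before it and overlapped the first match. A match is a description of letters and not a binding site.

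Of 9 other ADP-ribosyltransferases listed, 3 could be tested in salivary gland and 1 rose, Zc3hav1, which encodes the zinc-finger antiviral protein (difference 0.77, SE 0.11, adjusted p = 0.00766), and the median of the 3 was 0.40. Parp6 had 0.40 and Tnks2, a tankyrase, 0.10. In small intestine and in macrophages all 9 were tested and none passed. The largest of them there were Tnks (0.72) and Parp3 (0.35) in small intestine and Parp3 (-0.81) and Tiparp (-0.74) in macrophages.

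Of the genes of NAD supply and use, 6 of 12 were tested in salivary gland and 1 rose, Nampt, which makes the NAD+ precursor nicotinamide mononucleotide. Over all genes tested there 2.09% rose. Nampt was detected in 4 of 4 Irgm1-/- glands and in no WT gland, so it entered the test only through the group where it was higher. Its mean processed signal was at least 2.06-fold higher in Irgm1-/- glands (fitted difference 1.64, SE 0.25, adjusted p = 0.0106). The median of the 6 genes tested in salivary gland was -0.00. Cd38, an NAD-consuming ectoenzyme, had -0.35 there and did not pass (adjusted p = 0.211). In small intestine 0 of 10 and in macrophages 0 of 10 passed, with Nampt at 0.24 and 0.58. The genes that remove ADP-ribose (6, 8 and 6 tested in salivary gland, small intestine and macrophages), the other Deltex ligases (3, 4 and 4) and the repair partners of Parp1 and Parp2 (4, 6 and 6) held no gene past the threshold in any tissue. The nearest to it were Dtx2 in salivary gland (0.64, adjusted p = 0.0702) and Dtx3 in macrophages (-1.48, adjusted p = 0.122).

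Of the factors that carry the interferon signal to promoters, Stat2 (1.62, SE 0.18, adjusted p = 0.00165) and Irf9 (1.39, SE 0.16, adjusted p = 0.00208) rose in salivary gland. In small intestine the differences were 0.83 for Stat2 and 0.56 for Irf9, and in macrophages 0.77 for Stat2 and 0.93 for Irf9, and none of these passed.

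Markers of other cell types moved with genotype in some of these samples, and their part in the results above was not tested. In salivary gland 4 of 10 macrophage markers tested rose, C1qa (1.67), C1qb (1.32), C1qc (1.55) and Mrc1 (0.89), where 2.09% of all genes tested rose. The median of the 10 was 0.83. Mrc1 was detected in 1 of 4 WT glands. Csf1r (0.35), Adgre1 (0.24) and Itgam (-0.10) were among those not called. The summed macrophage marker level ran from 14.1 to 24.9 times the array percentile in Irgm1-/- glands and from 10.5 to 19.3 in WT glands, so the groups overlapped. Of 5 T and NK cell markers tested, Gzma rose (2.5, SE 0.25), and the summed level of the 10 listed was 3.17 to 5.46 in Irgm1-/- glands and 1.97 to 3.21 in WT glands, with Ncr1 never detected. Of the B and plasma cell markers 0 of 2 tested were called and of the epithelial markers 0 of 5. Salivary acinar markers were present in both genotypes with 0 of 6 called, and the median of the 6 was -0.56. Nearest to the threshold were Smgc (-0.87, adjusted p = 0.0506) and Lpo (-0.59, adjusted p = 0.0526), while Bpifa2 had 1.03 (adjusted p = 0.559). Amy1 was detected in 4 of 4 Irgm1-/- glands and in 2 of 4 WT glands. Of the enterocyte markers, 5 of 6 were never detected. In bulk tissue, more cells that express a gene and more RNA per cell cannot be told apart.

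In small intestine no listed marker of any cell type passed, and all 6 enterocyte markers were detected on every array, with a summed level of 248 to 258 in Irgm1-/- mice and 302 to 371 in WT mice. The summed epithelial level was 200 to 245 in Irgm1-/- mice and 259 to 300 in WT mice. That of B and plasma cell markers was 41.8 to 60.7 in Irgm1-/- mice and 28.4 to 37.8 in WT mice, although their median difference was -0.18. The enterocyte, epithelial and B and plasma cell sums thus did not overlap between genotypes, whereas the macrophage and the T and NK cell sums did. The macrophage preparations held macrophage markers at a summed level of 156 to 250 in Irgm1-/- mice and 204 to 288 in WT mice, with 0 of 10 tested called. The median difference of the 10 was -0.83, where that of all genes tested was 0.10. The preparations also held epithelial markers, at 81.8 to 172 in Irgm1-/- mice and 64.9 to 150 in WT mice. The median difference of the 5 epithelial markers was 0.54. All 5 pancreatic acinar markers were lower in Irgm1-/- macrophage samples (differences of -8.95 to -4.85), with summed levels of 1.90 to 4.75 in Irgm1-/- mice and 101 to 461 in WT mice, and amylase, Amy1, was also lower (difference -5.23). The summed levels of these markers did not overlap between genotypes.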

How the data were processed

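Total RNA was labelled directly with a single red dye and hybridised to Agilent arrays of design 026655, scanned and processed with Feature Extraction 11.5.1.1, per the file headers. The deposited intensity values are processed signals, background-subtracted within each array by that software per the file headers, and not normalised between arrays. The deposited flags that mark spots as above background, saturated or outliers hold other, yes or no, values. A table of the authors' processed intensity values, for which no source used here gives the method, served as an alternative.

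Outlier spots (0.434% of 43020) were left out, no spot was saturated, spots of a probe were averaged, and log2 signals were set against each array's 75th percentile. Symbols of 27508 probes came from RefSeq accessions (GRCm38.p6) and of 11921 from the files. A gene was read by its probe of highest mean over the 20 arrays, and tested where that probe was well above background on as many arrays as the smaller group had. Genotypes were compared within tissues with limma 3.58.1 in R 4.3.3, with Benjamini-Hochberg adjustment over all genes and a threshold of 0.05. Tissues were compared in 1 fit of 20 arrays scaled over probes detected on all of them, which treated the arrays as independent although 6 animals gave an array in both gut tissues. Arrays carry no read depth, and their number limits the precision. Nothing in the labels ties arrays to separate litters.

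Deviations of same-numbered Irgm1-/- and WT arrays, which also lay on 1 slide, correlated at 0.23 to 0.33 in small intestine and 0.24 to 0.63 in macrophages, which met the rule for pairs, and at -0.52 to 0.44 in salivary gland, which did not. The results given come from the fit without the replicate block in all tissues, and the block is an alternative. In the gut tissues, where the rule for pairs was met, the results given thus leave the pairs out. With the block 1 gene was called in small intestine and 1099 in macrophages, Parp12 among the latter. All 8 members and every probe of them were named. Of each list (other ADP-ribosyltransferases, ADP-ribose removal, other Deltex ligases, NAD supply and use, repair partners, interferon signal, cell type markers) the genes past the threshold were named, or up to 2 with the largest change. A listed gene is not reported here. Members and lists were chosen with earlier results of these data known. The scripts were tested on simulated data. Alternatives changed the background correction, scaling, filter, probes, blocks and arrays.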

Additional observations from a re-analysis of the deposited data

Results flagged for a closer look

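Among 16 groups of 4 salivary gland arrays checked for a single array far from the others, 1 stood out, where chance gives about 1 in 20. It was Parp1 in WT salivary gland, where replicate 3 had a log2 level of -3.31 and the other WT arrays lay between -3.47 and -3.44.

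In the main fit the genotype difference itself differed between tissues for Parp14 and Parp10. The Parp14 difference was larger by 2.52 on the log2 scale in salivary gland than in small intestine (adjusted p = 0.0106) and by 2.27 than in macrophages (adjusted p = 0.00482). Every salivary Irgm1-/- array lay above every WT array for Parp14, as for 10.3% of all genes tested in that tissue. The Parp10 difference was larger by 1.32 in salivary gland than in macrophages (adjusted p = 0.00944). Such gaps passed in 0.16% of all genes against small intestine and in 3.73% against macrophages. The Parp14 gap to small intestine did not pass with normexp (adjusted p = 0.19) or without WT replicate 1 of the small intestine (adjusted p = 0.057). On the median scale the Parp10 gap did not pass (adjusted p = 0.216).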

How the results depend on the processing

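In salivary gland 4 members were called, 4 to 5 when 1 array was left out, and 2 when a probe had to be detected on every array. Over all genes 258 were called there, with 117 under that filter and 664 with the replicate block, which changed no member's call there. Scaling to the array median gave 149 genes, no filter 143, detection on 3 arrays 419 and the slide as a block 619. In small intestine 26 genes were called, with 1 under normexp, the replicate block or sex as a covariate and 1 to 36 with 1 array left out, and no member under any of these. In macrophages 29 genes were called, with 11 with sex as a covariate, 14 for probes detected on every array, 87 on the median scale, 184 with normexp and 1099 with the replicate block, where 1 member, Parp12, was called. Parp1 in small intestine turned to 0.012 with quantile normalization, 0.0098 with the authors' table, 0.10 with other probes behind the percentile and 0.022 with sex, and Parp10 in macrophages to -0.060 with sex. With 1 array left out, small intestine values ran from -0.12 to 0.047 for Parp1, -0.095 to 0.42 for Parp9 and -0.063 to 0.34 for Dtx3l.

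Of the gaps between tissues, that of salivary gland to small intestine had 0 members with normexp and 0 to 1 with 1 array left out, and that to macrophages had 1 on the median scale and 2 with 1 array left out. Salivary gland minus small intestine turned for Parp1 (0.078 quantile, 0.43 median, 0.11 all probes behind the percentile, 0.10 percentile per tissue, -0.14 to 0.18 with an array left out) and for Dtx3l by the mean of all probes (-0.70). Salivary gland minus macrophages turned for Parp1 (-0.058 normexp, -0.23 quantile, -0.15 all probes, -0.030 per tissue, -0.19 to 0.18 with an array left out) and by the mean of all probes for Dtx3l (-0.60) and Parp9 (-0.077). Small intestine minus macrophages turned for Parp1 (-0.036 normexp, -0.31 quantile, -0.35 median, -0.26 all probes, -0.13 per tissue, -0.17 to 0.21 with an array left out), Parp12 (0.11 normexp), Parp10 (-0.14 median, -0.045 all probes), Dtx3l (0.10 mean of all probes) and Parp14 (-0.52 to 0.051 with an array left out).

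Between WT macrophages and WT salivary gland 4 members were called with quantile normalization, the median, all probes behind the percentile or the mean of all probes, and 2 to 3 with 1 array left out. The order turned for Dtx3l (-0.17 normexp, -1.02 quantile, -1.45 median, -0.96 all probes, -0.044 to 0.49 with an array left out), Parp1 (-0.048 normexp, -1.15 quantile, -1.40 median, -0.90 all probes), Parp14 (-0.30 median), Parp9 (1.81 mean of all probes, 0.29 per tissue) and Parp10 (0.26 per tissue). By the mean of all probes it also turned against WT small intestine, for Parp9 in salivary gland (0.26) and for Dtx3l (1.5) and Parp9 (2.07) in macrophages. That mean takes in probe 2 of Parp9, which was detected on every macrophage array and in no small intestine, and probes 2 and 3 of Dtx3l. The order given for these 2 genes thus holds for probe 1. Causes of the other turns were not tested. Detection on 3 arrays and the percentile per tissue were chosen after the data were seen. Dim signals limit Parp11, Parp12 and Parp2 most.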
